A study of Mus musculus with 12 samples.

Results

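The calcium pumps and IP3 receptors are the 9 genes Atp2a2, Atp2a3, Atp2b1, Atp2b2, Atp2b3, Atp2b4, Itpr1, Itpr2 and Itpr3, chosen by name from the 37432 genes of an FPKM table (fragments scaled by transcript length and by the size of the library). They were measured by bulk RNA-seq in the cochlea of male mice at P14 (postnatal day 14), cut into apical, middle and basal turns, with 2 repeats of each genotype and turn and 12 libraries in all. One genotype was wild-type, from purchased mice, and the other was homozygous for 35delG, a deletion of 1 base in Gjb2, the gene of the gap junction protein connexin 26. The homozygous mice came from 35delG/35delG embryonic stem cells placed in tetraploid embryos, which form the placenta, were delivered by cesarean section and had ICR foster mothers. Genotype and origin of the animals therefore cannot be told apart. The study's supplement calls the repeats biological, and the sources used here do not say how many mice or stem cell lines stand behind a library, so the tests measure the spread between these libraries.

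Cells keep calcium in the cytosol low by pumping it into stores or out of the cell, and they signal by letting it back in. The SERCA pumps, encoded by Atp2a genes, load the endoplasmic reticulum with calcium at the cost of ATP. The PMCA pumps, encoded by Atp2b genes, expel calcium across the plasma membrane. The IP3 receptors, encoded by Itpr genes, are the channels through which the endoplasmic reticulum releases calcium when phospholipase C makes inositol trisphosphate (IP3). In the cochlea, PMCA2 in the stereocilia of hair cells returns calcium to the endolymph, and calcium waves that pass between connexin-coupled supporting cells depend on IP3.

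The pumps of both families carry the same signature, the site at which an aspartate is phosphorylated in each pumping cycle, and the IP3 receptors share the selectivity filter of their pore. These stretches are shown because they are the working sites of the proteins and let the bases of related genes be compared at a matched place. The coding sequences are those of GENCODE M21 on GRCm38 (mm10), in the longest coding transcript of each gene. Capitals mark the motif, GANAANACNGGNACNNTNACN in the pumps and GGNGGNGGNGTNGGNGAN in the receptors, searched in the reading frame of the sense strand only and found once in each gene shown. Of 21584 coding genes, 36 (0.167%) hold the first motif in frame and 5 (0.0232%) the second. Each window shown lies within a single exon.
Atp2a3, chr11:72975582-72975650, plus strand, exon 8: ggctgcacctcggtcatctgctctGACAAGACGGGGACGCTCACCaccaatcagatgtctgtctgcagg
Atp2b1, chr10:98999793-98999861, plus strand, exon 10: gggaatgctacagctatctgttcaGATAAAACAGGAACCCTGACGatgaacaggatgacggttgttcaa
Atp2b2, chr6:113789873-113789941, minus strand, exon 13: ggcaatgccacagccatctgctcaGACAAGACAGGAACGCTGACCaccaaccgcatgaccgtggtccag
Atp2b4, chr1:133731783-133731851, minus strand, exon 10: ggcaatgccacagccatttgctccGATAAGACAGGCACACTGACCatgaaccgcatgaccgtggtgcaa
Itpr1, chr6:108518764-108518829, plus strand, exon 58: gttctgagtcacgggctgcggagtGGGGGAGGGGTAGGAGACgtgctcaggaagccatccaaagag
Itpr2, chr6:146158887-146158952, minus strand, exon 53: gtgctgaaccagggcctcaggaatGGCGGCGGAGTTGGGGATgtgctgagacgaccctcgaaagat
Itpr3, chr17:27118607-27118672, plus strand, exon 54: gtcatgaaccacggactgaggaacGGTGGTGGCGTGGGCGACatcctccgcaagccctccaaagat

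At these sites the genes of a family differ in some bases. Of 69 bases, Atp2b1 shares 53 with Atp2b2 and 54 with Atp2b4, and Atp2b2 shares 60 with Atp2b4. The IP3 receptor genes share 44 to 47 of 66. Over the whole coding sequences, the longest run of identical bases in any of the 36 pairs of members was 56 bases, between Atp2b2 and Atp2b3, and it was 44 bases between Atp2a2 and Atp2a3. Reads were 150 bp long and only uniquely mapped reads were kept. Other genes overlap 6 of the 9 members in the annotation, and whether reads were assigned by strand is not stated in the sources used here. All overlapping genes in the table stayed at or below 1.25 scaled FPKM in every library except Gm15083 and Gm44167, which both overlap Atp2b2 and reached 12.2 and 3.78, so the level of Atp2b2 is uncertain by what these may share with it.

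Levels are given as scaled FPKM, that is, the deposited FPKM divided by a factor for each library (0.917 to 1.06). The depth of the libraries is unknown, since no counts were used. Differences are log2 fold changes of homozygous over wild-type from limma on log2(scaled FPKM + 1), with the standard error (SE) and a p adjusted by Benjamini-Hochberg over the 16215 genes tested, and a difference was called where its fold exceeded 2 and its adjusted p lay below 0.01. All 9 members passed the filter of 1 FPKM in at least 2 libraries. The tissue was mixed, and fewer cells of a type and less RNA per cell cannot be told apart.

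The libraries differed in tissue make-up, also between repeats. The summed markers of spiral ganglion neurons (12 genes, of which Snap25 had the highest mean) were 18 and 847 scaled FPKM in the 2 wild-type basal libraries and 2883.5 and 3261.0 in the homozygous basal libraries, against 53.5 to 1715.6 in the 8 apical and middle libraries. In the 8 apical and middle libraries the summed markers of hair cells (12 genes, led by Cib2) ranged from 38.4, in wild-type middle repeat 1, to 277.4. They were 155.2 and 103.1 in the wild-type basal libraries and 35.6 and 41.7 in the homozygous ones, of which Cib2 alone made up 28.5 and 35.6. Otof, the otoferlin gene of the same list, which was picked after its values were seen, was at 0.0982 and 0.109 there, against 9.42 to 61.7 in the other 10 libraries. A level of Gjb2 does not show whether the 1 base is deleted, and the labels were not checked by it. Gjb2 lay at 331.5 to 376.2 scaled FPKM in the homozygous apical turn against 247.8 to 253.6 in wild-type, at 255.8 to 450.6 against 139.7 to 268.2 in the middle turn and at 58.6 to 126.4 against 255.6 to 434.5 in the basal turn.

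Over the 12 libraries the SERCA gene Atp2a2 had the highest mean (69.6 scaled FPKM), ahead of Itpr1 (35.9), Atp2b1 (29.2), Atp2a3 (28.8) and Atp2b2 (19.1). Itpr3 (8.04), Itpr2 (5.72), Atp2b3 (5.71) and Atp2b4 (2.75) were lower. The spread over libraries was smallest for Itpr2, whose highest library was 2.26 times its lowest, and Atp2a2 followed at 2.92 times. It was widest for Atp2b3, at 356.2 times, and Atp2a3, at 41.2 times. In the wild-type apical turn, neighbours in the order of levels did not overlap except Atp2a2 with Atp2a3 and Itpr3 with Itpr2. In the homozygous basal turn the order was Atp2a2, Atp2b2, Atp2b3, Atp2b1, Itpr1, Itpr3, Itpr2, Atp2b4 and Atp2a3, and the 5 genes from Atp2b2 to Itpr3 overlapped their neighbours, as did Atp2b4 and Atp2a3.

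**Figure D1:**
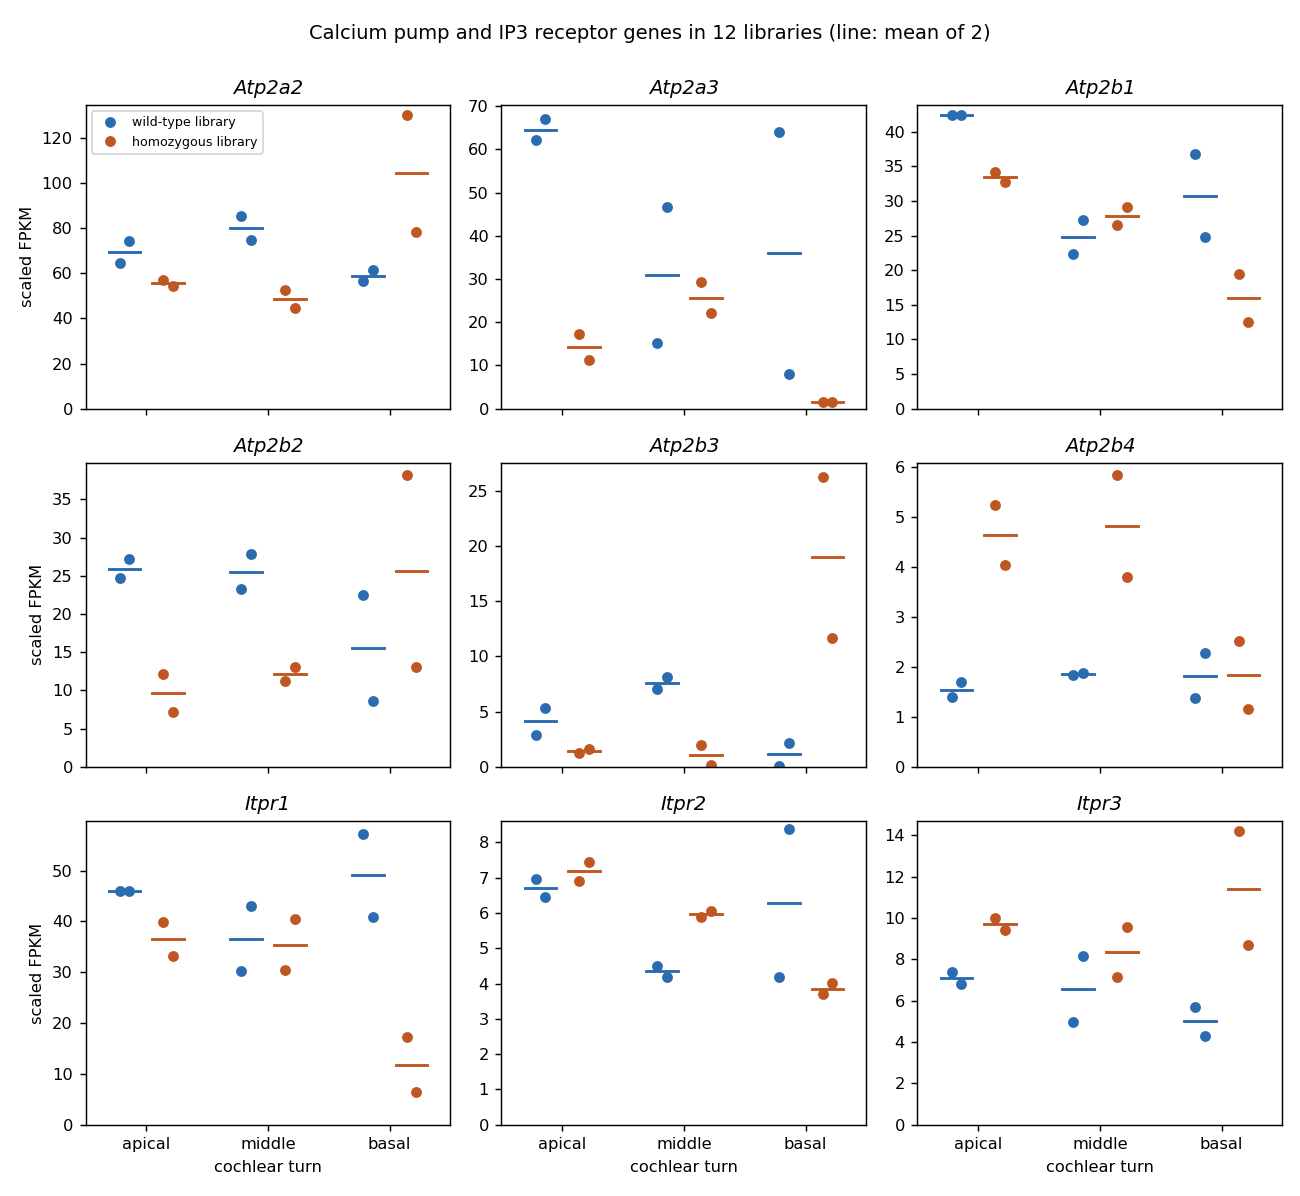
Scaled FPKM (vertical axes, each from 0) of the 9 genes by cochlear turn, with wild-type libraries in blue and homozygous libraries in orange. Each point is 1 library and each line the mean of 2. In the basal turn Atp2b3 is at 26.2 and 11.7 in the homozygous libraries and at 0.0736 and 2.15 in the wild-type ones, and Itpr1 is at 17.2 and 6.44 against 57.2 and 40.9.

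In the basal turn, 2 of the 9 members were called between the genotypes, Atp2b3 higher and Itpr1 lower in homozygous mice, where 696 of 16215 genes were called (4.29%). At an unadjusted p under 0.05, 6 of the 9 passed, and 32.4% of all genes did. The median log2 fold change of the members was −0.02, as was that of all genes tested (−0.02). In the apical turn limma called 0 of 9 members, with 0.179% of all genes called, and 3 of 9 had an unadjusted p under 0.05, as did 16.4% of all genes. In the middle turn it also called 0 of 9, again with 0.179% of all genes called and 3 of 9 members under an unadjusted p of 0.05, where 25.4% of all genes were. For the mean of the 3 turns it called 0 of 9, where 0.376% of all genes were called, and 5 of 9 members had an unadjusted p under 0.05 against 18.6% of all genes. The wild-type libraries of a turn enter each of that turn's comparisons, so the comparisons below are not independent. Whether the genotypes overlapped in a turn is given below as a description. It comes without the share of all genes that do so and is not a test.

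**Figure D2:**
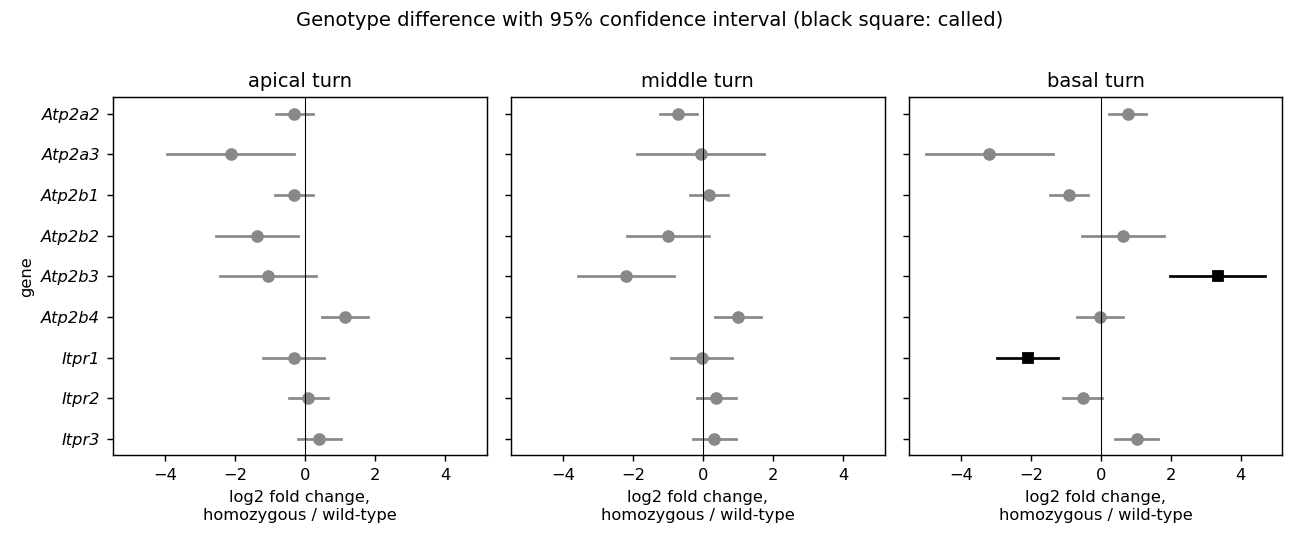
Log2 fold change of homozygous over wild-type (horizontal axes) of the 9 genes in each turn, with 95% confidence intervals as lines. Black squares are the genes called, Atp2b3 at 3.34 and Itpr1 at −2.09 in the basal turn, and grey circles are not called.

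Atp2a2 encodes SERCA2, the pump found in most cells, and lies at chr5:122453514-122502225 on the minus strand. Its level was 64.6 and 74.4 scaled FPKM in the wild-type apical turn, 85.4 and 74.9 in the middle turn and 56.5 and 61.4 in the basal turn. In homozygous mice it was 57.1 and 54.4 in the apical turn, 52.7 and 44.6 in the middle turn and 130.3 and 78.5 in the basal turn. The genotypes did not overlap in any turn, and homozygous libraries were lower in the apical and middle turns but higher in the basal turn. The log2 fold changes were −0.31 (SE 0.231, adjusted p = 0.554) in the apical turn, −0.71 (SE 0.231, adjusted p = 0.103) in the middle turn and 0.77 (SE 0.231, adjusted p = 0.0501) in the basal turn, none of which was called. The effect in the basal turn exceeded that in the middle turn by 1.48 on the log2 scale (SE 0.327, adjusted p = 0.0138), which also missed the threshold. Over the 12 libraries, on the log2 scale, Atp2a2 had a Spearman's rho of 0.874 (Pearson's r 0.75) with the summed neuron markers. It had a rho of 0.93 (r 0.788) with those of Schwann cells and myelin and of 0.853 (r 0.7) with those of skeletal muscle. The part of these cell types in the differences of Atp2a2 was not tested.

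Atp2a3 encodes SERCA3, a pump of lower calcium affinity, and lies at chr11:72961169-72993044 on the plus strand. It was at 62.1 and 67.0 scaled FPKM in the wild-type apical turn, at 15.3 and 46.6 in the middle turn and at 63.9 and 7.96 in the basal turn. The wild-type repeats thus differed by 3.04 times in the middle and 8.02 times in the basal turn. In homozygous mice it was at 17.2 and 11.3 in the apical, 29.3 and 22.2 in the middle and 1.63 and 1.63 in the basal turn. All homozygous libraries lay below the wild-type ones in the apical and basal turns, and the genotypes overlapped in the middle turn. The log2 fold changes were −2.13 for the apical turn (SE 0.8, adjusted p = 0.238), −0.07 in the middle turn (SE 0.8, adjusted p = 0.968) and −3.20 in the basal turn (SE 0.8, adjusted p = 0.0267). None was called. The basal value rests on the wild-type repeats: without wild-type basal repeat 2 it was −4.63 with an adjusted p of 0.00129, and without repeat 1 it was −1.78 with an adjusted p of 0.0853.

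In the homozygous basal turn, Atp2a2 stood at 79.9 and 48.3 times the level of Atp2a3, against 0.884 to 7.72 times in the other 10 libraries. Atp2a3 made up 1.24% and 2.03% of the summed SERCA level there and between 11.5% and 53.1% elsewhere. The summed SERCA level itself moved less, from 65.8 to 141.4 scaled FPKM over all libraries, and in the basal turn it was 131.9 and 80.2 in homozygous libraries against 120.4 and 69.4. The genes most like Atp2a3 over the 12 libraries, among tested genes whose mean reached 5 scaled FPKM, were Slc17a8 (r 0.976), Fcrlb (r 0.965) and Ripor3 (r 0.956). Slc17a8, which encodes the glutamate transporter VGLUT3 of inner hair cells, is a hair cell marker of the list used here. The summed hair cell markers had an r of 0.818 with Atp2a3 over the 12 libraries, both on the log2 scale. Markers of endothelial cells (r 0.787) and spiral ligament fibrocytes (r 0.727) came near that value. The hair cell r was 0.849 without wild-type middle repeat 1 and homozygous basal repeat 1. These were the 2 libraries farthest from the median of the log2 sums. In wild-type middle repeat 1, Atp2a3 was at 15.3 beside hair cell markers of 38.4. The r without both homozygous basal libraries was not computed. The part of these cell types in the differences of Atp2a3 was not tested.

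The PMCA genes had 1 call. Atp2b1, at chr10:98915152-99026143 on the plus strand, encodes PMCA1, the housekeeping form. Its wild-type levels were 42.4 and 42.4 scaled FPKM in the apical, 22.3 and 27.3 in the middle and 36.8 and 24.8 in the basal turn, and its homozygous levels were 34.2 and 32.8, 26.5 and 29.1, and 19.5 and 12.5. The 2 homozygous basal libraries were the lowest of all 12. In the basal turn the log2 fold change was −0.91 (SE 0.237, adjusted p = 0.0309), a fold under 2 and no call. It was −0.33 in the apical turn (adjusted p = 0.534) and 0.17 in the middle turn (adjusted p = 0.704), where the genotypes overlapped. Summed hair cell markers had an r of 0.894 with Atp2b1 over the 12 libraries on the log2 scale. Markers of supporting cells (r 0.866), endothelial cells (r 0.8) and spiral ligament fibrocytes (r 0.784) came near that value. Without wild-type middle repeat 1 and homozygous basal repeat 1, the hair cell r was 0.944. It was not computed without both homozygous basal libraries. The part of these cell types in the differences of Atp2b1 was not tested.

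Atp2b2 encodes PMCA2, the pump of hair cell stereocilia, and lies at chr6:113743831-114042026 on the minus strand. It was at 24.7 and 27.2 scaled FPKM in the wild-type apical turn and at 23.3 and 27.8 in the middle turn, and at 12.2 and 7.2, and 11.2 and 13.1, in the homozygous libraries of these turns. Homozygous libraries lay below wild-type ones in both turns, but the log2 fold changes of −1.37 (SE 0.515, adjusted p = 0.238) and −1.01 (SE 0.515, adjusted p = 0.26) were not called. In the basal turn the genotypes overlapped, with 38.2 and 13 in homozygous libraries against 22.5 and 8.65. The log2 fold change there was 0.64 (SE 0.515, adjusted p = 0.439) and went to −0.10 without homozygous basal repeat 1 and to about 0 (−0.005) without wild-type basal repeat 2.

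Atp2b3 encodes PMCA3, a form known from brain and nerve, and lies at chrX:73503086-73571005 on the plus strand. Its wild-type levels were 2.89 and 5.34 scaled FPKM in the apical turn, 7.0 and 8.17 in the middle turn and 0.0736 and 2.15 in the basal turn. Its homozygous levels were 1.2 and 1.58 in the apical turn, 1.97 and 0.16 in the middle turn and 26.2 and 11.7 in the basal turn. Homozygous libraries were thus below all wild-type ones in the apical and middle turns and above them in the basal turn. The basal log2 fold change was 3.34 (SE 0.601, 95% confidence interval 1.98 to 4.71, adjusted p = 0.00932), the higher of the 2 calls among the members. It was −1.06 (SE 0.601, adjusted p = 0.426) in the apical and −2.21 (SE 0.601, adjusted p = 0.071) in the middle turn, neither of which was called.

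The call of Atp2b3 was close to the threshold. It was lost when any library other than wild-type basal repeat 2 was left out, with log2 fold changes of 2.56 to 4.12 and adjusted p of 0.0026 to 0.0526 over the 12 fits. Without homozygous basal repeat 1 the log2 fold change was 2.80 (adjusted p = 0.0526), and without wild-type basal repeat 1, the library with almost no neuron markers, it was 2.56 (adjusted p = 0.0447). The level of Atp2b3 had an r of 0.923 (rho 0.986) with the summed neuron markers over the 12 libraries, both on the log2 scale. Markers of skeletal muscle (r 0.84, rho 0.909) and of Schwann cells and myelin (r 0.796, rho 0.853) followed. The neuron r was 0.921 without wild-type basal repeat 1 and homozygous middle repeat 2. These were the 2 libraries farthest from the median of the log2 sums. Between the 2 homozygous basal libraries the order was the opposite, with Atp2b3 at 26.2 and 11.7 where the neuron markers were at 2883.5 and 3261.0. The 3 libraries of lowest Atp2b3, wild-type basal repeat 1, homozygous middle repeat 2 and homozygous apical repeat 1, were also the 3 of lowest neuron markers, at 18, 53.5 and 176.9. The part of the neuron, muscle and Schwann cell markers in the call was not tested. The genes most like Atp2b3 were Susd4 (r 0.995), Zfp804a (r 0.992) and Syt3 (r 0.991), a synaptotagmin of nerve cells.

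**Figure D3:**
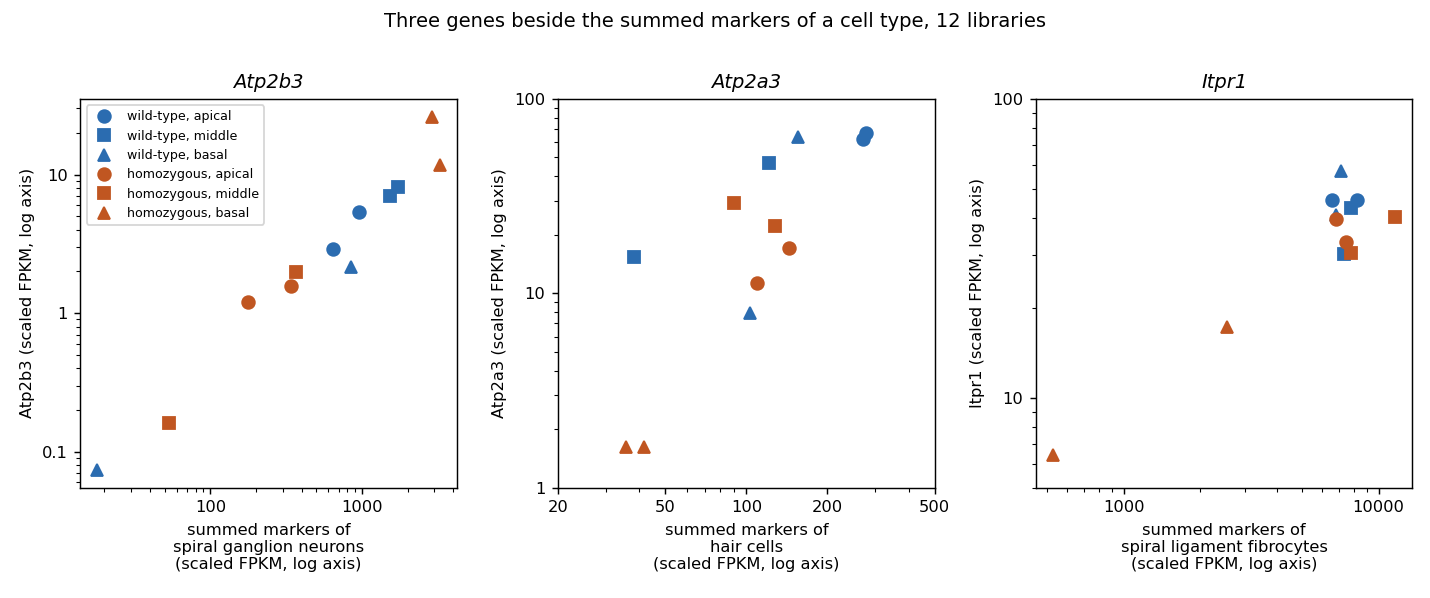
Scaled FPKM of Atp2b3, Atp2a3 and Itpr1 (vertical log axes) against the summed scaled FPKM of a marker list (horizontal log axes), with 1 point for each of 12 libraries, colour for genotype and shape for turn. Atp2b3 is lowest where neuron markers are lowest, at 0.0736 and 0.16 beside sums of 18 and 53.5. Atp2a3 is at 1.63 where hair cell markers are 35.6 and 41.7, but at 15.3 in wild-type middle repeat 1, where they are 38.4. Itpr1 is low in the 2 homozygous basal libraries, which are also low in fibrocyte markers.

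Atp2b4 encodes PMCA4 and lies at chr1:133699457-133801041 on the minus strand. It was the lowest PMCA gene by mean and was at 1.4 and 1.69, 1.84 and 1.87, and 1.37 and 2.27 scaled FPKM in the wild-type apical, middle and basal turns. In homozygous mice it was at 5.24 and 4.04 in the apical, 5.84 and 3.8 in the middle and 2.52 and 1.15 in the basal turn. Homozygous libraries were above the wild-type ones in the apical and middle turns, by 3.01 times in the mean FPKM of the apical turn, and overlapped them in the basal turn. The log2 fold changes, 1.14 (SE 0.289, adjusted p = 0.112) and 1.005 (SE 0.289, adjusted p = 0.0795), were not called, and that of the basal turn was −0.02 (SE 0.289, adjusted p = 0.977). Of the marker lists, that of strial marginal and intermediate cells was most like Atp2b4 (r 0.77), and its part was not tested.

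The make-up of the PMCA level differed in the homozygous basal turn. Atp2b3 made up 30.3% and 30.5% of the summed PMCA level there and between 0.121% and 12.9% in the other 10 libraries. Atp2b1, at 41.0% to 71.9% elsewhere, made up 22.5% and 32.5%. Summed over the 4 genes, the PMCA level of the basal turn was 86.4 and 38.4 scaled FPKM in homozygous libraries against 60.8 and 37.8, so the genotypes overlapped. The SERCA level was 1.41 to 2.09 times the PMCA level over all 12 libraries.

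**Figure D4:**
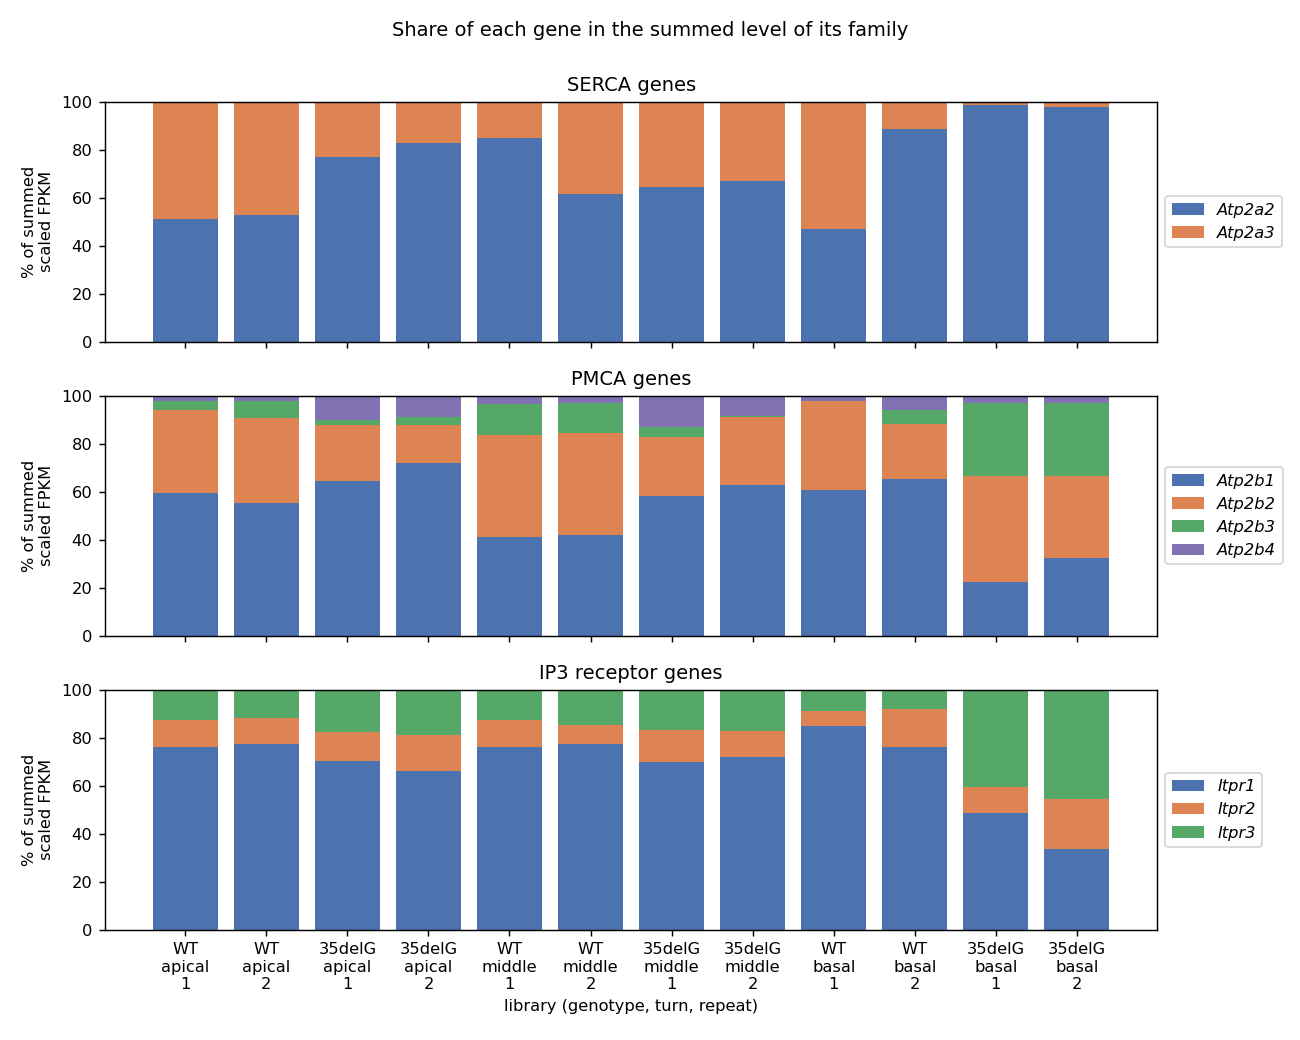
Share of each gene in the summed scaled FPKM of its family (vertical axis, percent, bars stacked to 100), 1 bar for each library, ordered by turn and genotype (WT, wild-type, and 35delG, homozygous). In both homozygous basal libraries Atp2a3 is almost absent from the SERCA bar, Atp2b3 takes 30.3% and 30.5% of the PMCA bar, and Itpr1 takes 48.9% and 33.6% of the IP3 receptor bar.

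Among the IP3 receptors, Itpr1 fell in the basal turn of homozygous mice and the other 2 genes were not called. Itpr1, at chr6:108213096-108551109 on the plus strand, is the main form in neurons. Here it had the highest level of the 3 receptor genes in 11 of 12 libraries, all but homozygous basal repeat 2. Its wild-type levels were 45.9 and 45.9 scaled FPKM in the apical, 30.2 and 43.1 in the middle and 57.2 and 40.9 in the basal turn. Its homozygous levels were 39.8 and 33.2 in the apical, 30.5 and 40.4 in the middle and 17.2 and 6.44 in the basal turn. The 2 homozygous basal libraries lay below the other 10, whose lowest was 30.2.

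The basal log2 fold change of Itpr1 was −2.09 (SE 0.383, 95% confidence interval −2.96 to −1.22, adjusted p = 0.0098). In the apical and middle turns it was −0.33 (SE 0.383, adjusted p = 0.731) and −0.04 (SE 0.383, adjusted p = 0.963). The call held without wild-type basal repeat 2 (−2.32, adjusted p = 0.00905) and without homozygous basal repeat 1 (−2.73, adjusted p = 0.00402) and was lost without each of the other 10 libraries, down to −1.43 (adjusted p = 0.024) without homozygous basal repeat 2. The summed markers of spiral ligament fibrocytes (7 genes, led by Coch) were 2544.1 and 527.3 in the homozygous basal libraries and 6573.2 to 11629.4 in the other 10. Their r with Itpr1 was 0.927 over 12 libraries but −0.075 without the 2 homozygous basal libraries, so it rests on those. Summed supporting cell markers (10 genes) were 375.3 and 227.1 in the homozygous basal libraries against 1147.7 and 698.3 in the wild-type basal ones. They had an r of 0.756 (rho 0.42) with Itpr1 over the 12 libraries. Hair cell markers had an r of 0.745 with Itpr1 (0.81 without wild-type middle repeat 1 and homozygous basal repeat 1). Homozygous basal repeat 2 stayed in that value, and the hair cell r without both homozygous basal libraries was not computed. The part of these cell types in the call was not tested. The genes most like Itpr1 were Rflnb (r 0.988), Il17re (r 0.985) and Tmem221 (r 0.98).

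Itpr2, at chr6:146108299-146502178 on the minus strand, encodes the receptor of highest IP3 affinity. It was at 6.96 and 6.44, 4.51 and 4.2, and 4.19 and 8.37 scaled FPKM in the wild-type apical, middle and basal turns, and at 6.9 and 7.45, 5.9 and 6.06, and 3.71 and 4.02 in the homozygous ones. Its log2 fold changes of 0.09, 0.38 and −0.52 (SE 0.243 each, adjusted p = 0.9, 0.361 and 0.177) were not called. The homozygous libraries were above the wild-type ones in the middle turn and below them in the basal turn, where the 95% interval ran from −1.07 to 0.03.

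Itpr3 lies at chr17:27057304-27122223 on the plus strand and encodes the receptor typical of epithelial cells. It was at 7.38 and 6.81, 4.99 and 8.19, and 5.72 and 4.32 scaled FPKM in the wild-type apical, middle and basal turns. The homozygous levels were 10 and 9.44, 7.17 and 9.56, and 14.2 and 8.68. Homozygous libraries were above wild-type ones in the apical and basal turns. The log2 fold changes were 0.41 (SE 0.274, adjusted p = 0.509), 0.33 (SE 0.274, adjusted p = 0.498) and 1.02 (SE 0.274, adjusted p = 0.0344), and none was called. The ratio of Itpr1 to Itpr3 was 1.21 and 0.742 in the homozygous basal libraries and 3.52 to 10 in the other 10. The share of Itpr3 in the summed receptor level was 40.5% and 45.4% there and 8.06% to 18.8% in the other libraries. The summed receptor level was 35.1 and 19.1 scaled FPKM in the homozygous basal libraries and 39.7 to 67.1 in the other 10.

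At an adjusted p under 0.05 with the same fold limit, Atp2a3 and Itpr3 would have joined Atp2b3 and Itpr1 in the basal turn, which is 4 of 9 members against 12.1% of all genes. These 4 did not share a direction, since Atp2b3 and Itpr3 were higher and Atp2a3 and Itpr1 lower in homozygous mice.

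The difference of the genotype effect between turns was tested in the same fit. That fit treated all libraries as independent, also those of different turns that may come from the same mice. Between the middle and apical turns limma called 0 of 9 members, with 0% of all genes called and 0 of 9 members under an unadjusted p of 0.05 against 8.05% of all genes. Between the basal and apical turns it called 0 of 9, where 0.796% of all genes were called, and 5 of 9 members had an unadjusted p under 0.05 against 28.4% of all genes. The nearest was Atp2b3, whose effect was 4.40 higher on the log2 scale in the basal than in the apical turn (SE 0.851, adjusted p = 0.0168). Between the basal and middle turns 7 of 9 members had an unadjusted p under 0.05 against 37.7% of all genes. In that difference 1 of 9 was called, Atp2b3 at 5.55 (SE 0.851, adjusted p = 0.00384), where 8.91% of all genes were called. This call held in 8 of the 12 fits with a library left out, at 4.76 to 6.33, and was lost without wild-type middle repeat 1 (adjusted p = 0.0144) or 2 (adjusted p = 0.0132), homozygous middle repeat 2 (adjusted p = 0.0115) or homozygous basal repeat 1 (adjusted p = 0.012). The median of all genes tested was −0.12 in this difference. Itpr1 differed there by −2.05 (SE 0.542, adjusted p = 0.0277) and was not called. These differences share the libraries of the basal turn with the comparison within that turn and are not independent of it.

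Within the wild-type cochlea, the turns did not differ beyond the threshold for any member. Between the middle and apical turns limma called 0 of 9 (0.0863% of all genes), with 1 of 9 under an unadjusted p of 0.05 against 19.9% of all genes, Atp2b1 at −0.76 (SE 0.237, adjusted p = 0.171). Between the basal and apical turns it called 0 of 9 (0.0863% of all genes) and between the basal and middle turns 0 of 9 (0% of all genes), with Atp2b3 as the 1 member under an unadjusted p of 0.05 in each, against 20.3% and 15.2% of all genes. Atp2b3 was lower in the basal than in the middle turn by a log2 fold change of −2.22 (SE 0.601, adjusted p = 0.146) and than in the apical turn by −1.43 (SE 0.601, adjusted p = 0.229). The 95% interval of the former ran from −3.59 to −0.85, and the wild-type basal repeats differed in summed neuron markers, at 18 and 847.

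Some members had similar patterns over the 12 libraries, and no clustering was run. The highest correlations among the 36 pairs of members were those of Atp2a2 with Atp2b3 (r 0.923, rho 0.895), Atp2b1 with Itpr1 (r 0.89, rho 0.825), Atp2a3 with Atp2b1 (r 0.844, rho 0.825) and Atp2a3 with Itpr1 (r 0.832, rho 0.832). Atp2a2 with Atp2b3 thus paired a pump of the store with a pump of the membrane, and the other pairs were among Atp2a3, Atp2b1 and Itpr1. Each of these latter genes was lowest in the homozygous basal libraries, and their r without those libraries was not computed. Atp2b2, Atp2b4, Itpr2 and Itpr3 were in none of these pairs. The libraries share turn, genotype and tissue make-up, and these values are a description. Of single genes outside the members, the nearest to Atp2b1 were Hyou1 (r 0.991), Sox13 (r 0.983) and Tmem79 (r 0.981), and the nearest to Atp2a2 were Peg13 (r 0.979), 2900097C17Rik (r 0.974) and Dync1h1 (r 0.971). Atp2b2 was closest to Zfp521 (r 0.974), Epha4 (r 0.952) and Gm44645 (r 0.949). The other 3 had lower values, with Slc13a5 (r 0.94), Clec3a (r 0.911) and Rcc2 (r 0.905) nearest to Atp2b4, Mfsd1 (r 0.944), Gm13782 (r 0.93) and Cep41 (r 0.913) nearest to Itpr2, and Nt5c2 (r 0.919), Mettl14 (r 0.916) and Sgsm3 (r 0.888) nearest to Itpr3.

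The other genes of calcium handling were taken from a list of 93, of which 91 were in the table and 81 were tested. In the apical and middle turns limma called 0 of 81, and in the basal turn 3 were higher and 1 was lower (4.94%, against 4.29% of all genes). The median log2 fold change of the 81 genes was −0.03 in the basal turn, against −0.02 of all genes. For the mean of the turns 0 of 81 were called. Calls of single genes on this list were checked in no alternative setting and with no library left out.

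Upstream of the IP3 receptors, Plcb1, a phospholipase C that makes IP3 on the signal of Gq proteins, was called higher in the basal turn. It was at 5.59 and 4.64 scaled FPKM in homozygous libraries against 1.07 and 1.99 (log2 fold change 1.29, SE 0.217, adjusted p = 0.00808), and it was the 1 call among 13 tested genes of the Gq proteins and phospholipases C. Plcb1 was lower in homozygous mice in the apical (−0.715, adjusted p = 0.164) and middle turns (−1.141, adjusted p = 0.0364), neither of which was called. The summed neuron markers differ between the same libraries, and their part was not tested. Plcd3, the member of that group with the highest mean, was at −1.35 (adjusted p = 0.0685). None of the 8 tested enzymes that remove IP3 (Impa1 −0.14), none of the 9 tested proteins that regulate the receptors (Ahcyl2 0.50) and not Ryr2, the 1 tested ryanodine receptor (1.44, adjusted p = 0.0151, mean 0.906 scaled FPKM), was called in the basal turn.

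Of the calcium-binding proteins of the cytosol, 3 of 12 were called in the basal turn. Calm3, a calmodulin gene and thus of a protein that activates the PMCA pumps, was at 376.3 and 416.7 scaled FPKM in homozygous libraries against 116.3 and 179.2 (log2 fold change 1.45, SE 0.265, adjusted p = 0.00974). Hpca, the neuronal calcium sensor hippocalcin, was at 5.59 and 14.3 against 0.676 and 1.68 (2.24, SE 0.412, adjusted p = 0.0098). S100a1, which binds SERCA in muscle, was at 221.3 and 122.8 against 1253.1 and 1056.4 (−2.80, SE 0.395, adjusted p = 0.00546), and the 2 homozygous basal libraries were the lowest of all 12. In the homozygous basal libraries the summed neuron markers were higher than in wild-type, as were Calm3 and Hpca. Markers of Schwann cells and myelin, oligodendrocytes and astrocytes, and skeletal muscle were also higher there. The summed markers of hair cells, supporting cells and fibrocytes were lower there, as was S100a1. So were those of red blood cells, leukocytes and platelets, endothelial cells, and smooth muscle and pericytes. The part of these cell types was not tested. S100b, the gene of the group with the highest mean, was not called (−0.59, adjusted p = 0.551).

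In the other groups of the list no gene was called in the basal turn. This held for the 2 tested pumps outside the 9 members (Atp2c1 −0.12), the 2 tested peptides that regulate SERCA (Mrln −0.15) and the 2 PMCA partner subunits (Bsg −0.24). It also held for the 6 tested sodium-calcium exchangers (Slc24a2 3.59, SE 1.083, adjusted p = 0.0511), the 12 genes of mitochondrial calcium transport (Vdac1 1.23, adjusted p = 0.0327), the 6 of store-operated entry (Saraf −0.02) and the 8 tested buffers of the endoplasmic reticulum (Calr −0.23). The values in parentheses are log2 fold changes in the basal turn of the gene with the highest mean in its group.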

How the data were processed

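RNA-seq of 12 cochlear libraries, 2 for each of 6 groups of genotype and turn, was analysed from 1 table of FPKM. Per the labels and the study's methods, the authors trimmed 150 bp paired-end reads with fastp 0.20.0, aligned them to mm10 with STAR 2.7.3a, kept unique alignments and calculated the deposited FPKM with StringTie 2.0. Their read counts were not used here, and library depth is unknown. The deposited FPKM were divided by median-of-ratios factors taken over 11552 genes that reached 1 FPKM throughout. Genes with at least 1 deposited FPKM in 2 libraries (16215 of 37432) were log2-transformed after adding 1 and fitted with 6 group means in limma 3.58.1 under R 4.3.3. The two-sided moderated test used eBayes with trend, with 6 residual degrees of freedom and 2.78 from the prior, and p-values were adjusted by Benjamini-Hochberg. A fold change on this scale understates that of low genes. The limits for a call were a fold over 2 together with an adjusted p below 0.01. Groups came from the labels.

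The members, the lists and the alternatives were chosen with earlier results of these data known. Named besides the members are calcium handling genes called in a turn or highest in their group, the highest marker of a list used, and the 3 genes of highest correlation with a member. The fit was tested on simulated data: in the basal turn, over 16215 genes, it found 75 of the 100 that differed 4-fold, 96 of the 100 that differed 16-fold and 1 that did not differ. The changed genes were drawn only from genes with a wild-type level above those of Itpr2, Itpr3, Atp2b3 and Atp2b4, with independent noise. The rates found therefore do not cover these members or differences in tissue make-up. Alternatives were another pseudocount, filter, scaling, spread estimate, threshold or replicate block, and each library left out. Sequences were read from GENCODE M21 transcripts. Those of Atp2a2 and Atp2b3 are not reported here. Figures used matplotlib 3.10.9.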

Additional observations from a re-analysis of the deposited data

Results flagged for a closer look

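The genotype effect on Atp2b3 differed between the basal and the middle turn by 5.55 on the log2 scale (limma, SE 0.851, adjusted p = 0.00384), as a test of the difference itself. In the middle turn the homozygous libraries had 1.97 and 0.16 scaled FPKM against 7.0 and 8.17 in wild-type, and in the basal turn they had 26.2 and 11.7 against 0.0736 and 2.15. The summed neuron markers in the same libraries were 369.9 and 53.5 against 1524.1 and 1715.6 in the middle turn, and 2883.5 and 3261.0 against 18 and 847 in the basal turn. Their part in the difference was not tested. Leaving out 1 library gave 4.76 to 6.33, with an adjusted p of up to 0.0144.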

How the results depend on the processing

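The 2 calls in the basal turn were both kept with a filter of 5 FPKM, with quantile normalization and without a fold limit. With the FPKM as deposited 1 was kept (Atp2b3), and 0 were called with a pseudocount of 0.1, no filter, library weights, no trend or only the libraries of the basal turn. An adjusted p under 0.05 gave 4, with 12.1% of all genes called. Leaving out a library gave 0 to 3 calls in the basal turn, 0 to 1 for the mean of the turns and for the basal minus apical difference, and 0 to 2 for the basal minus middle difference. In the last, a pseudocount of 0.1 (7.33% of all genes called) and no filter (0.822%) gave 0. An adjusted p under 0.05 gave 4 there, with 19.8% of all genes called. In the basal minus apical difference it gave 1, with 11.2% of all genes called. Of the 12 fits, the 1 call for the mean of the turns was Atp2a3, and the 1 call for basal minus apical was Atp2b3, both without wild-type basal repeat 2. The adjusted p of Atp2b3 and Itpr1 in the basal turn reached 0.145 and 0.152 with the basal libraries alone. The cause of these losses was not tested. All genes called in the basal turn numbered 696, between 40 and 1840 when a library was left out and between 0 and 1954 in the other settings.

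Repeat numbers do not pair the libraries: over 15 pairs of groups, the deviations of libraries with the same number correlated at −0.432 to 0.45, with 4 over 0.1. With a replicate block, 0 members and 1.09% of all genes were called in the basal turn (Atp2b3 adjusted p = 0.0172, Itpr1 adjusted p = 0.0165).

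Some differences that were not called changed sign. In the middle turn Atp2a3 was at 0.093 with the FPKM as deposited, and Itpr1 at 0.128 with these and at 0.06 with quantile normalization; the deposited FPKM moved the median of all genes in the middle turn from 0.039 to 0.173. Atp2b4 in the basal turn was at 0.004 with quantile normalization, Atp2b3 in the mean of the turns at −0.006 with a pseudocount of 0.1 and Itpr2 at 0.042 with the FPKM as deposited. Leaving out a library gave −0.847 to 0.699 for Atp2a3 and −0.293 to 0.21 for Itpr1 in the middle turn, −0.1 to 1.391 for Atp2b2 and −0.371 to 0.348 for Atp2b4 in the basal turn, and −0.2 to 0.04 for Atp2a2, −0.236 to 0.282 for Atp2b3 and −0.16 to 0.125 for Itpr2 in the mean of the turns. Of the other values of single genes, 740 kept direction and side of the threshold, 40 lost a call and 4 gained one. A call could be lost only by Atp2b3 and Itpr1 in the basal turn and by Atp2b3 in the basal minus middle difference. The 740 were thus mostly values that were called in neither fit, and they do not show that the calls are stable. Unknown depth and 2 libraries a group limit the precision of all values.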

Other observations

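Between the basal and middle turns, the genotype effect differed beyond the threshold in 11 of the 81 tested genes of calcium handling (13.6%, against 8.91% of all genes), 7 higher and 4 lower in the basal turn. Those named here were chosen after their values were seen. Among the 7 were Calb2, the calretinin gene (7.39 on the log2 scale, adjusted p = 0.00425), Cabp1, a calcium sensor that binds IP3 receptors (5.76, adjusted p = 0.00898), Ncs1 (5.55, adjusted p = 0.0082) and Micu3, a regulator of the mitochondrial uniporter (2.71, adjusted p = 0.00368). The 4 lower ones were Ocm, the oncomodulin gene of outer hair cells (−9.13, adjusted p = 0.00492), S100a1 (−3.16, adjusted p = 0.00588), Orai3, a channel of store-operated entry (−1.38, adjusted p = 0.00372), and Rcn1, a buffer of the endoplasmic reticulum (−1.28, adjusted p = 0.00836). The summed neuron and hair cell markers differ between the same libraries, and their part was not tested.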
